A study of Mus musculus with 12 samples.

Results

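The Tcf/Lef factors and the proteins that work with beta-catenin were followed through 10 genes: Lef1, Tcf7, Tcf7l1, Tcf7l2, Tcf4, Ctnnb1, Bcl9, Pygo2, Apc and Gsk3b. They were chosen by name for their known roles in the Wnt pathway, with earlier results of these data known. The array carried 29 probes for them, out of 41174 probes and 22410 named genes. Of these 29 probes, 23 were detected, meaning well above the local background on all 3 arrays of at least 1 treatment group, and they covered 9 of the 10 genes. Since several names are shared, they were matched through a probe's transcript record where that was a RefSeq record, and otherwise by the printed symbol. The printed symbol was used for all Bcl9 probes, Ctnnb1 A_52_P472397, Tcf7l2 A_52_P494915, the Pygo2 probe and some Lef1 and Apc probes. By their records, the probes printed as Tcf3 on the array were Tcf7l1, and those printed as Tcfe2a were the E protein Tcf3 and were left out. The probes named Tcf4 were those of the E-box binding gene Tcf4 (also called E2-2), an E protein outside the Tcf/Lef family, and not those of Tcf7l2, whose protein is often called TCF4.

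Wnt proteins bind Frizzled and Lrp receptors at the cell surface and thereby slow the breakdown of beta-catenin, the product of Ctnnb1. Without Wnt, a cytoplasmic destruction complex built on Axin and Apc lets the kinase Gsk3b phosphorylate beta-catenin, which marks it for degradation. With Wnt, beta-catenin accumulates, enters the nucleus and binds the Tcf/Lef DNA-binding proteins, where Bcl9 and Pygo2 join it to help switch genes on. Much of this control acts on protein, which arrays of RNA do not see. R-spondins are secreted proteins that strengthen Wnt signals, and in mammary epithelium the pathway is known for its part in stem cell maintenance and in tumors.

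The cells were C57MG, an established mouse mammary epithelial line, grown as monolayers. They received for 24 h either the carrier protein bovine serum albumin (BSA), recombinant human Rspo2 at 100 ng/ml, recombinant mouse Wnt3a at 100 ng/ml, or Rspo2 plus Wnt3a at 100 ng/ml each. Each of the 4 groups held 3 separately harvested monolayers of this one line, so p-values measured the spread between cultures of a line and not between animals. RNA of each monolayer was hybridized to its own array, giving 12 arrays.

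The arrays lay on 3 slides, and slides were not balanced over treatments. All BSA arrays shared a slide with Rspo2 replicate 1, all Rspo2 plus Wnt3a arrays shared another with Wnt3a replicate 3, and the remaining slide carried Rspo2 replicates 2 and 3 and the other Wnt3a arrays. BSA was therefore never on the same slide as Wnt3a, given alone or with Rspo2. Only some of the results below also give the value from a fit with slide as a term. Of the 48 member differences that passed the adjusted p without that term, 33 no longer passed with it. A result given below without such a value is not thereby shown to hold in that fit. Arrays of a group correlated at 0.989 to 0.996 over detected probes and arrays of different groups at 0.977 to 0.993, and between 51.3% and 64.1% of probes were well above background on an array. Of 13 epithelial markers, 5 were detected, while Cdh1, Cldn7 and Esrp1 were well above background on no array, and 10 of 11 mesenchymal and myoepithelial markers were detected. The summed processed signal of the epithelial markers was 9854 to 12310 in BSA, 8683 to 10990 in Rspo2, 11880 to 15220 in Wnt3a and 23690 to 24510 in Rspo2 plus Wnt3a arrays. Nearly all of that sum was the basal keratin gene Krt14, with mean signals of 10800, 9530, 13400 and 23700 in the same order. The other detected epithelial markers were dim and did not move alike. The luminal keratin gene Krt8 stood at 92.7, 67.7, 45.7 and 39.2, and Krt7 at 34.3, 37.2, 46.6 and 54.3. Krt5 stood at 57.8, 28.4, 30.3 and 62.6, and Cldn3 at 43.2, 28.3, 25.3 and 37.7. The summed signal of the mesenchymal and myoepithelial markers was 666400 to 793000, 666500 to 759700, 643100 to 701900 and 784800 to 832600, and within it smooth muscle actin, Acta2, had means of 132000, 151000, 144000 and 211000. From BSA to the combination, mean signals of Tagln (330 to 599), Vim (131000 to 137000) and S100a4 (302000 to 321000) were also higher. Those of Fn1 (40100 to 30000), Col1a1 (72400 to 64600) and Col1a2 (15600 to 12700) were lower. So were those of Col3a1 (5440 to 2860), Pdgfrb (35500 to 22000) and Cdh2 (2530 to 2470). The part of these markers in the results below was not tested. Of the immune markers 4 of 10 were detected, and of the endothelial markers 1 of 4, Cdh5.

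The probe sequences themselves were not used here. For Tcf7 and Tcf7l2, Tcf/Lef genes with several probes that rose under the combined treatment, the bases just before RefSeq transcript starts are shown in the mouse build GRCm38.p6, 5′ to 3′ in the direction of the gene. Capitals mark a match to the core that Tcf/Lef proteins bind, searched on both strands as CTTTGAA and as CTTTGAT, and further as CTTTGTA and as CTTTGTT.
Tcf7, chr11:52282596-52282695, minus strand, 100 bases before a start: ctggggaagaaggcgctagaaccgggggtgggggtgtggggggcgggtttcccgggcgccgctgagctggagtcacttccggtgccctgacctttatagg
Tcf7l2, chr19:55741560-55741809, plus strand, 250 bases before the upstream start: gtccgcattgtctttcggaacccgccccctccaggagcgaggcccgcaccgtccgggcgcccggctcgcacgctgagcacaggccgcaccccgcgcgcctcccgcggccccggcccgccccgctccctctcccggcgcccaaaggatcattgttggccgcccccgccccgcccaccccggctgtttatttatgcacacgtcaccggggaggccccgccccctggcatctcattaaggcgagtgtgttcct
Tcf7l2, chr19:55895071-55895320, plus strand, 250 bases before a downstream start: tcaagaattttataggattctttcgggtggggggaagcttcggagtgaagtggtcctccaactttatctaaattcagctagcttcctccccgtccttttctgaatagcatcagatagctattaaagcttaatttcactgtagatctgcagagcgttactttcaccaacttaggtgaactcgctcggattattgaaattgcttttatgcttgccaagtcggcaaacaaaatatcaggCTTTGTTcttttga
RefSeq windows were found for 8 of the 10 genes, 16 windows in all. A match within the 250 bases before the start stood in 2 of them, the Tcf7l2 window above, where it began 14 bases before the start, and a Lef1 window at chr3:131156044-131156293, which held TACAAAG. Over the 32851 windows of all genes, 14.8% held at least 1 match, and the share with each of the 4 forms, in the order given, was 4.46%, 3.21%, 3.2% and 5.03%. A match describes letters in a window and not a binding site.

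Under Rspo2 plus Wnt3a, Tcf7 rose 5.95-fold and 6.45-fold at its 2 probes and Tcf7l2 1.51-fold to 1.73-fold at 3 of its 4 probes, while Tcf7l1 fell 1.43-fold at 1 of its 2 probes and Lef1 was not above background in any group. The E protein gene Tcf4 and the coactivator gene Bcl9 each had a probe that rose over 2-fold, and the beta-catenin gene Ctnnb1 fell slightly at 2 of its probes and to 0.334 of its BSA level at the third. Pygo2, Apc and Gsk3b had no probe that passed the test. Once slide was a term, both Tcf7 probes and Tcf4 A_52_P424847 kept an adjusted p under 0.05, while the differences of Tcf7l2 (adjusted p from 0.112 to 0.957), Tcf7l1 (0.336), Bcl9 (0.161) and Ctnnb1 (0.401 to 0.673) did not. That fit linked the BSA arrays to the other slides only through Rspo2 replicate 1, and the combination arrays only through Wnt3a replicate 3. Results kept and lost in it both rest on these single arrays. Rspo2 alone gave no 2-fold change that passed the test, and Wnt3a alone gave it for a Tcf7 probe. In these bulk cultures fewer cells carrying an RNA and less of it per cell cannot be told apart.

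Differences are on the log2 scale, where 1 is a doubling, after each array was divided by its own 75th percentile signal. A probe is said to have risen or fallen where limma's Benjamini-Hochberg adjusted p over all 22750 detected probes was under 0.05, and it is called changed where the difference was also at least 2-fold. Against BSA, Rspo2 plus Wnt3a gave 5 called member probes of 23, 4 higher and 1 lower, from 4 genes, where 5.08% of all detected probes were called, 1.28% higher and 3.79% lower. Without the fold requirement 12 of the 23 passed, 8 higher and 4 lower, where 39.2% of all probes did, 21.9% higher and 17.3% lower. The median difference of the 23 probes was 0.29 and that of all detected probes 0.04. Wnt3a alone gave 1 called member probe, beside 2.52% of all probes, and 8 with an adjusted p under 0.05, beside 31.5%. Rspo2 alone gave 0 called in limma, beside 0.721%. Of the 23 member probes under Rspo2 alone, 2 had an adjusted p under 0.05, beside 16.8%, and 5 an unadjusted p under 0.05, and the methods' t-test called 0. The comparisons with BSA share the BSA arrays.

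**Figure D1:**
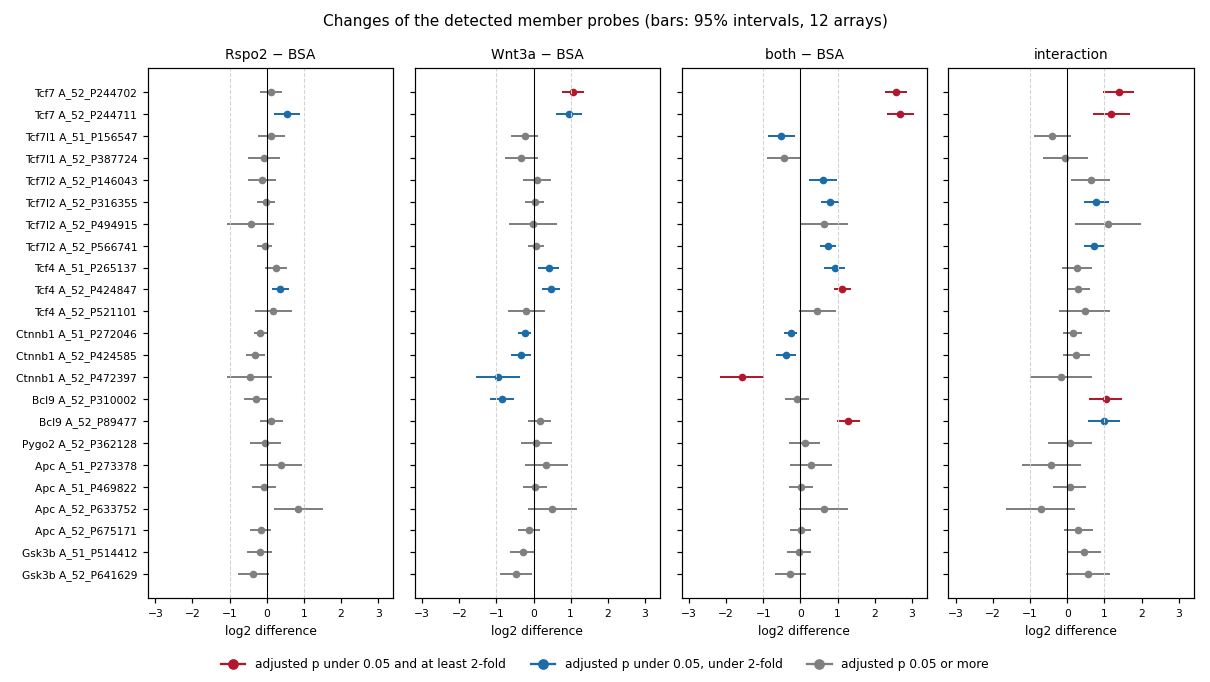
Log2 difference from BSA for the 23 detected member probes under each treatment, and the interaction of Rspo2 and Wnt3a, with 95% intervals from limma over 12 arrays. Under Rspo2 plus Wnt3a the 2 Tcf7 probes stand at 2.57 and 2.69, apart from all other members, and Ctnnb1 probe A_52_P472397 stands lowest at -1.58.

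Tcf7 encodes a Tcf/Lef factor of T cells and other tissues that is itself a known target of the pathway. The gene lies on chromosome 11 at 52246527 to 52283383 on the minus strand (GRCm38.p6), and both of its probes were read on all 12 arrays, with their matched positions 717 bases apart. At probe A_52_P244702 the processed signal was 182, 194 and 228 in BSA, 213, 188 and 156 in Rspo2, 400, 320 and 275 in Wnt3a, and 965, 1049 and 1361 in Rspo2 plus Wnt3a. BSA and Rspo2 arrays overlapped, every Wnt3a array stood above both, and every combination array stood above every Wnt3a array.

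On the scaled log2 scale the differences from BSA at this probe were 0.12 ± 0.12 (SE, adjusted p = 0.511) with Rspo2, 1.07 ± 0.12 (adjusted p = 0.000369) with Wnt3a and 2.57 ± 0.12 (adjusted p = 2.99e-07) with both. The combination was thus 5.95-fold above BSA (95% interval of the log2 difference 2.30 to 2.85), and 38 of 22750 probes had a larger rise. It exceeded Wnt3a alone by 1.51 (adjusted p = 7.37e-05), where 0.747% of all probes and 3 of 23 member probes were called, and 4.27% and 8 of 23 passed without the fold requirement. Without BSA replicate 2 or Wnt3a replicate 1, the Wnt3a difference was 0.99 and under 2-fold, and it was 1.20 (adjusted p = 0.0456) once slide was a term.

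At the other Tcf7 probe, A_52_P244711, the signal was 70.7, 93.3 and 104 in BSA, 113, 127 and 89.2 in Rspo2, 172, 120 and 116 in Wnt3a, and 452, 519 and 635 with both. The combination arrays again stood clear of all others, and scaled signals of Rspo2 arrays lay above those of BSA. Here Rspo2 alone gave 0.54 (adjusted p = 0.036), Wnt3a 0.96 (adjusted p = 0.00161) and the combination 2.69 ± 0.15 (adjusted p = 6.74e-07), and 32 of 22750 probes had a larger rise. Fitted with slide as a term, the combination stood at 2.92 and 2.75 at the 2 probes and both calls were kept. On the slide that held Wnt3a replicate 3 beside the 3 combination arrays, the combination was higher by 1.72 and 1.91.

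**Figure D2:**
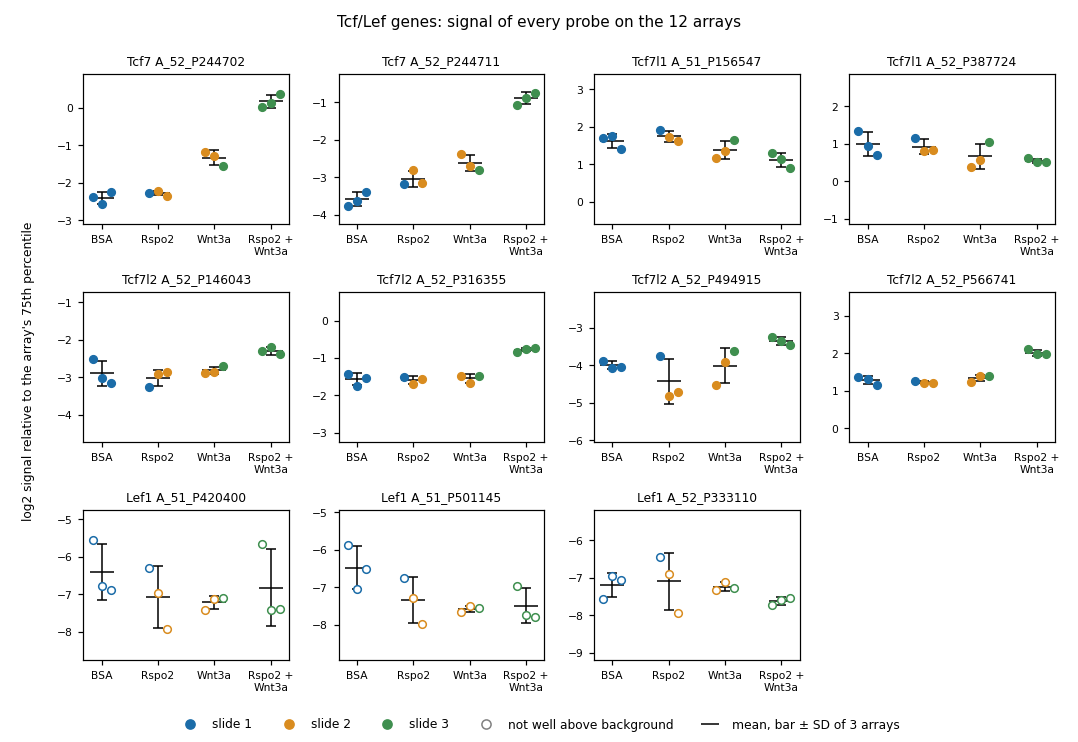
Scaled log2 signal of each Lef1, Tcf7, Tcf7l1 and Tcf7l2 probe on the 12 arrays by treatment, colored by slide, with open points for arrays where the probe was not well above background and bars for the mean ± SD of 3 arrays. Both Tcf7 probes climb from BSA to Wnt3a to the combination, the 4 Tcf7l2 probes have every combination array above every BSA array, and all Lef1 points are open.

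Tcf7l2 encodes the Tcf/Lef factor TCF4, which in many epithelia is the main partner of beta-catenin. The gene lies on chromosome 19 at 55741797 to 55933659 on the plus strand. At A_52_P566741, its 3′-most probe, the scaled log2 signal was 1.36, 1.31 and 1.16 in BSA, 1.26, 1.21 and 1.21 in Rspo2, 1.25, 1.40 and 1.39 in Wnt3a, and 2.11, 1.97 and 1.97 with both. The first 3 groups overlapped one another and the combination arrays lay above all of them.

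The combination raised this probe by 0.74 ± 0.08 (1.67-fold, adjusted p = 7.46e-05), and A_52_P316355 by 0.79 (adjusted p = 0.000184) and A_52_P146043 by 0.60 (adjusted p = 0.0126). The remaining probe, A_52_P494915, differed by 0.64 (adjusted p = 0.0886) from BSA and by 1.08 from Rspo2 (adjusted p = 0.0226), and the latter call was lost without Rspo2 replicate 2 or 3 or any of the combination replicates and turned to -0.46 under normexp background correction. In the comparison of the combination with Rspo2, 5 member probes were called beside 2.67% of all probes, and 11 passed without the fold requirement beside 16.5%. Wnt3a alone gave -0.01 to 0.08 over the 4 probes and Rspo2 alone -0.44 to -0.02, with no adjusted p under 0.05. With slide as a term the 4 combination differences were 0.73, 0.80, 0.06 and 1.07 for A_52_P566741, A_52_P316355, A_52_P146043 and A_52_P494915, with adjusted p from 0.112 to 0.957. Within the slide shared with Wnt3a replicate 3, the combination was higher by 0.63, 0.69, 0.40 and 0.26 in that order.

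Tcf7l1 encodes TCF3, the family member best known as a repressor of Wnt targets. The gene lies on chromosome 6 at 72626371 to 72789045 on the minus strand, and its probes matched 845 bases apart. At A_51_P156547 the scaled log2 signal was 1.70, 1.75 and 1.41 in BSA, 1.91, 1.72 and 1.62 in Rspo2, 1.16, 1.35 and 1.64 in Wnt3a, and 1.28, 1.14 and 0.89 with both. Every combination array lay below every BSA array, whereas the groups given a single protein overlapped BSA. The combination differed from BSA by -0.51 ± 0.15 (adjusted p = 0.0192) at this probe and by -0.46 (adjusted p = 0.0734) at A_52_P387724. With arrays scaled to their medians the same differences were -0.30 (adjusted p = 0.11) and -0.24 (adjusted p = 0.207), and with slide as a term -0.66 (adjusted p = 0.336) and -0.68 (adjusted p = 0.382).

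Lef1 encodes the remaining Tcf/Lef factor and, like Tcf7, is a common target of the pathway. None of its 3 probes was well above background on any of the 12 arrays, with processed signals of 3.14 to 20.2. The dimmest probe called well above background on an array had a signal of 15.4 to 43.8, so Lef1 has only an upper limit here and no difference can be given. A_52_P333110 matches 106980 bases upstream of the 3′-most Lef1 probe, and the 3′ ends of the other 2 matches lie 1083 bases apart. Of these 2, A_51_P420400 has a match that is split over 18162 bases.

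The E protein Tcf4 pairs with tissue-specific helix-loop-helix factors on E-box DNA and does not need beta-catenin. At A_52_P424847 the scaled log2 signal was 1.61, 1.5 and 1.47 in BSA, 1.88, 1.88 and 1.91 in Rspo2, 1.95, 2.12 and 1.92 in Wnt3a, and 2.81, 2.67 and 2.49 with both. The BSA arrays were lowest, the arrays given a single protein lay just above them and close together, and the combination arrays were highest. The differences from BSA were 0.37 (adjusted p = 0.0287) with Rspo2, 0.47 (adjusted p = 0.0045) with Wnt3a and 1.13 ± 0.09 (2.19-fold, adjusted p = 1.1e-05) with both. When slide was a term the combination stood at 1.23 (adjusted p = 0.0307).

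A second probe 931 bases away, A_51_P265137, gave 0.92 (adjusted p = 0.000227) with the combination and 0.41 (adjusted p = 0.0239) with Wnt3a, and the former was 1.00 (adjusted p = 0.096) when slide was a term. The third, A_52_P521101, whose match lies 164416 bases upstream and is split over 53835 bases, gave 0.45 (adjusted p = 0.114) with the combination, and its groups overlapped. The interaction of Rspo2 and Wnt3a, the combined difference less the sum of the differences with each alone, was 0.26 to 0.47 over the 3 probes with adjusted p of 0.163 to 0.32.

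Ctnnb1 encodes beta-catenin and lies on chromosome 9 at 120933400 to 120960507 on the plus strand. Of its 3 probes, 2 match 496 bases apart. At A_52_P424585 the scaled log2 signal was 4.81, 4.61 and 4.56 in BSA, 4.49, 4.36 and 4.22 in Rspo2, 4.27, 4.33 and 4.39 in Wnt3a, and 4.08, 4.32 and 4.42 with both. All treated arrays lay below all BSA arrays and overlapped one another. The differences were -0.30 (adjusted p = 0.0768), -0.33 (adjusted p = 0.0405) and -0.39 (adjusted p = 0.0169), and at A_51_P272046 they were -0.17 (adjusted p = 0.113), -0.24 (adjusted p = 0.0241) and -0.27 (adjusted p = 0.0119). With arrays scaled to their medians, the Wnt3a differences were -0.0039 and 0.09 and the combined ones -0.17 and -0.05, with no adjusted p under 0.05, and the sign at A_51_P272046 under Wnt3a turned. Fitted with slide as a term, the combined differences were -0.27 (adjusted p = 0.673) and -0.26 (adjusted p = 0.533).

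The third Ctnnb1 probe, A_52_P472397, was designed to a cDNA record and matches 3999 bases upstream of the 3′-most probe. Its scaled log2 signal was -0.12, -0.67 and -0.67 in BSA, -1.07, -0.94 and -0.83 in Rspo2, -1.23, -1.17 and -1.93 in Wnt3a, and -2.60, -1.77 and -1.83 with both. BSA arrays were highest and the combination arrays lay below all but the lowest Wnt3a array. The differences were -0.46 (adjusted p = 0.229), -0.95 (adjusted p = 0.0176) and -1.58 ± 0.26 (0.334 of the BSA level, adjusted p = 0.000938). Fitted with slide as a term, the last was -1.04 (adjusted p = 0.401), and beside Wnt3a replicate 3 on their shared slide the combination arrays differed by -0.14. The probes of this gene therefore gave unequal differences, and which transcript A_52_P472397 reads was not tested.

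Bcl9 bridges beta-catenin to Pygo proteins in the nucleus. The gene lies on chromosome 3 at 97203658 to 97298402 on the minus strand. At A_52_P89477 the scaled log2 signal was -3.93, -3.55 and -3.47 in BSA, -3.66, -3.61 and -3.29 in Rspo2, -3.50, -3.55 and -3.41 in Wnt3a, and -2.37, -2.37 and -2.34 with both. The combination arrays lay above all other arrays, which overlapped. The differences were 0.13 (adjusted p = 0.509) with Rspo2, 0.17 (adjusted p = 0.353) with Wnt3a and 1.29 ± 0.13 (2.44-fold, adjusted p = 3.97e-05) with both. Fitted with slide as a term, the combined difference was 0.96 (adjusted p = 0.161), and within the shared slide the combination exceeded Wnt3a by 1.05.

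A second Bcl9 probe did not move the same way. At A_52_P310002, which matches 10773 bases upstream, the scaled log2 signal was -1.83, -1.88 and -1.90 in BSA, -2.21, -2.31 and -1.92 in Rspo2, -2.71, -2.91 and -2.53 in Wnt3a, and -1.74, -2.00 and -2.14 with both. Wnt3a arrays were lowest and the combination arrays overlapped BSA. Wnt3a alone gave -0.84 ± 0.13 (adjusted p = 0.00178), or -1.02 (adjusted p = 0.114) with a slide term, and the combination differed by -0.09 (adjusted p = 0.64). The third Bcl9 probe, A_51_P384700, was well above background on 0 arrays. Pygo2, which binds methylated histone H3 and joins the same complex, had a single probe with differences of -0.04, 0.08 and 0.11 under Rspo2, Wnt3a and both, and a 95% interval of -0.28 to 0.51 for the last.

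**Figure D3:**
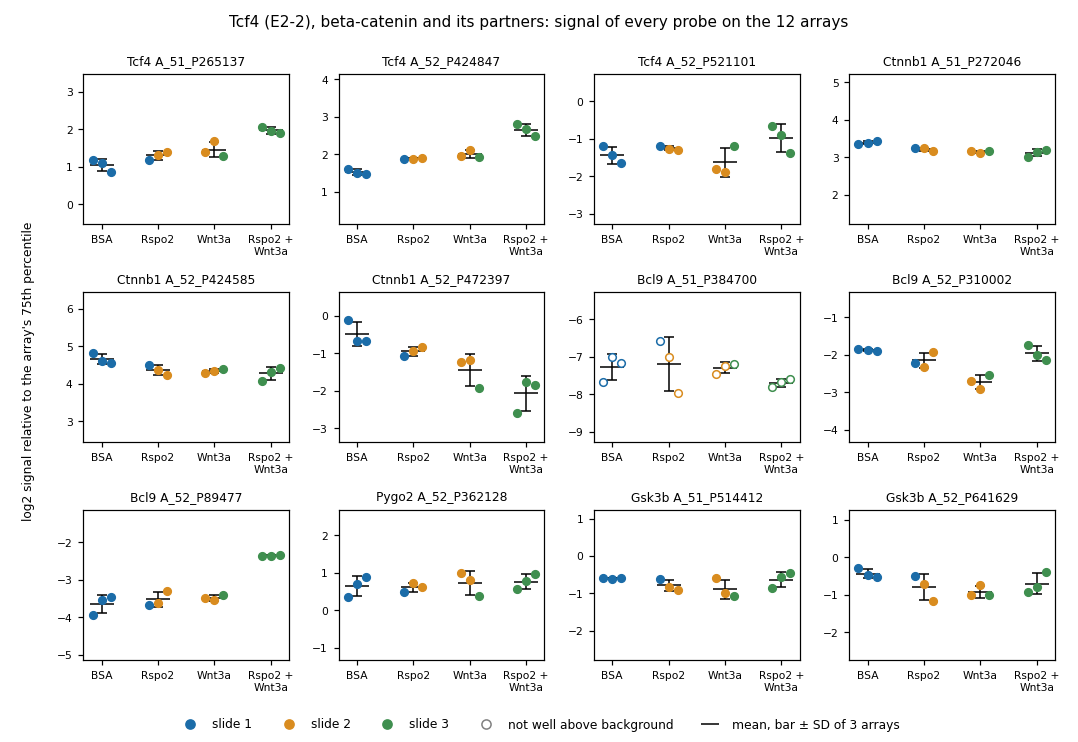
Scaled log2 signal of the detected and undetected probes of Tcf4, Ctnnb1, Bcl9, Pygo2 and Gsk3b on the 12 arrays by treatment, colored by slide, with open points for arrays not well above background and bars for the mean ± SD of 3 arrays. Probes of Bcl9 and of Ctnnb1 differ in their pattern within each gene.

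Apc and Gsk3b belong to the destruction complex, Apc as a scaffold and Gsk3b as the kinase. Of 6 Apc probes, 4 were detected, and under the combination they differed from BSA by 0.00 to 0.63 with adjusted p from 0.107 to 0.992. The highest of these, A_52_P633752, was near background: it was well above background on 1 BSA, 2 Rspo2, 3 Wnt3a and 3 combination arrays, with signals of 19.8 to 66.5. Apc A_52_P675171, printed as 10 spots on each array, gave -0.17, -0.13 and 0.00 under Rspo2, Wnt3a and both, with a 95% interval of -0.26 to 0.27 for the last. Apc A_51_P429446 was well above background on 1 array, of the combination, and A_52_P284981 on 0 arrays.

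The Gsk3b gene lies on chromosome 16 at 38089001 to 38246084 on the plus strand. Its scaled log2 signal at A_52_P641629 was -0.30, -0.49 and -0.53 in BSA, -0.50, -0.73 and -1.18 in Rspo2, -1.01, -0.74 and -1.01 in Wnt3a, and -0.94, -0.80 and -0.40 with both. Wnt3a arrays lay below BSA and the other groups overlapped it. The Wnt3a difference was -0.48 (adjusted p = 0.0668) and the combined one -0.27 (adjusted p = 0.268), and at A_51_P514412 they were -0.29 (adjusted p = 0.132) and -0.04 (adjusted p = 0.857).

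Where a gene other than Apc and Gsk3b had several detected probes, the difference was set against how far upstream each probe matched. Tcf7 and Tcf7l2 probes shared a direction along the gene under the combination, from 0 to 24611 bases for Tcf7l2. For Tcf4, Ctnnb1 and Bcl9 the probe far upstream and the 3′-most probe gave different values, at 0.45 against 0.92, -1.58 against -0.39 and -0.09 against 1.29. These positions are distances between probes in the array's own annotation, whose build is not given in the sources used here.

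**Figure D4:**
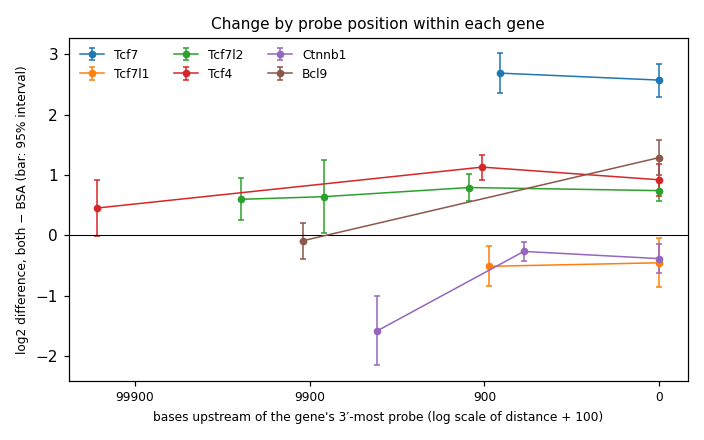
Log2 difference between Rspo2 plus Wnt3a and BSA for each detected probe of Tcf7, Tcf7l1, Tcf7l2, Tcf4, Ctnnb1 and Bcl9, with 95% intervals, against how many bases upstream of its gene's 3′-most probe it matches, on a log axis. Lines join the probes of a gene. Tcf7 probes stand at 2.57 and 2.69, and the Bcl9 and Ctnnb1 probes separate with distance.

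Whether Rspo2 and Wnt3a together did more than the sum of each alone was tested as an interaction on the log2 scale. Of the 23 member probes 3 were called, all positive, where 1.93% of all probes were called and 1.27% called positive. An adjusted p under 0.05 was reached by 6, also positive, where 8.9% of all probes reached it and 3.58% did so as positive. For Tcf7 the interaction was 1.38 ± 0.17 (adjusted p = 0.00194) and 1.19 ± 0.21 (adjusted p = 0.0112). For Tcf7l2 it was 0.78 (adjusted p = 0.0116) at A_52_P316355 and 0.73 (adjusted p = 0.00622) at A_52_P566741. For Bcl9 it was 1.00 (adjusted p = 0.0124) at A_52_P89477, and 1.03 (adjusted p = 0.0132) at A_52_P310002, where Wnt3a alone was low and the combination overlapped BSA. The median interaction of the 23 probes was 0.30 and that of all probes 0.00. The call at A_52_P310002 was lost without Rspo2 replicate 2, Wnt3a replicate 2 or combination replicate 1. A slide term left A_52_P244702 of Tcf7 called at 1.59 (adjusted p = 0.0208), and the other 5 had adjusted p of 0.0624 to 0.209. With arrays scaled to their medians the median of all probes shifted by -0.27 and the interaction was 0.51 and 0.45 at the 2 Tcf7l2 probes (adjusted p = 0.0548 and 0.0672) and 0.72 (adjusted p = 0.0719) at A_52_P89477. Wnt3a against Rspo2 gave 0 called member probes, beside 0.202% of all probes, 1 with an adjusted p under 0.05, beside 1.47%, and 4 with an unadjusted p under 0.05.

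Known Tcf/Lef target genes, listed with earlier results of these data known, were followed beside the factors. Of 22 listed, 12 were detected, and against BSA the combination gave 6 called higher and 1 lower, where 1.28% of all detected probes were called higher and 3.79% lower, with a median difference of 0.89 over the 12 beside 0.04 over all probes. This median is the same with Axin2, below background in BSA, at its bound. Without the fold requirement 10 were higher and 1 lower. Axin2, a scaffold of the destruction complex and the classical feedback target, was well above background only on the 3 combination arrays, at a mean signal of 289. As a bound, it was at least 9.39-fold higher than in BSA, and no test was run on this bound. Axin2 passed the detection filter through the combination group alone, and its fit used BSA values below background. Its calls, counted above and below, therefore add no support of their own. Ccnd1, a cyclin of the cell cycle, rose by 1.70. Apcdd1, a membrane inhibitor of Wnt signaling, rose by 1.39, Znrf3, a ligase that removes Wnt receptors, by 1.22 and Notum, a secreted inhibitor of Wnt proteins, by 1.08. Sox9, a transcription factor of progenitor cells, fell by 1.02 on the log2 scale. Tcf7 is the remaining called target. Once slide was a term, Tcf7 A_52_P244702 (2.92, adjusted p = 0.00134) stayed called, as did Axin2 with the limit just given. The others did not. Ccnd1 stood at 1.25 (adjusted p = 0.127), Apcdd1 at 1.12 (0.0632), Znrf3 at 1.47 (0.169), Notum at 1.15 (0.158) and Sox9 at -1.36 (0.0665). Myc (0.25) and Cd44 (0.32) rose without reaching 2-fold, at adjusted p = 0.0189 and 0.0127. Wnt3a alone called Ccnd1 (1.08) and Tcf7, and Rspo2 alone called 0 of the 12.

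The other listed partners are given against 5.08% of all detected probes called and 39.2% passing without the fold requirement. Of 21 detected nuclear cofactors, 0 were called higher and 2 lower under the combination, with a median of -0.06, and 3 higher and 5 lower passed without the fold requirement. Those called were Tle2, a Groucho corepressor, at -1.55 (adjusted p = 4.19e-05) and Hipk2, a nuclear kinase, at -1.09 (adjusted p = 3.94e-05). Of the destruction complex and its regulators, 1 of 21 was called, Axin2, with the limit given above, and the median was -0.02. Without the fold requirement 2 passed. Of 6 catenin and cadherin partners, Ctnnal1, an alpha-catenin-like protein, was called at -1.08 (adjusted p = 6.61e-05). Of 10 E proteins and partners, Twist1, a helix-loop-helix factor, was called higher at 1.02 (adjusted p = 6.61e-05). In the interaction 1 of these 10 was called positive and 2 negative, where 1.93% of all probes were called and 1.27% called positive. The 2 negative ones were the inhibitors Id2 and Id4, at -1.03 and -1.17. Counts this small over lists of this size give nothing particular to them. Over all lists 11 genes were called and 7 without BSA replicate 1. Once slide was a term, 2 of the 11 stayed called, Axin2 and Tcf7, and Tle2, Hipk2, Ctnnal1 and Twist1 had adjusted p of 0.0913 to 0.114.

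The genes whose signal followed the called members most closely over the 12 arrays are named as a description. For Tcf7 A_52_P244702 they were Rab30 (Pearson r = 0.992), Ahr (0.992) and Bhlhe40 (0.987), and for A_52_P244711 Shpk (0.99), Suox (0.979) and Fgfrl1 (0.978). For Tcf4 A_52_P424847 they were Pla2g5 (0.985), Mrgprf (0.983) and Rdh5 (0.982). For Bcl9 A_52_P89477 they were 5730593N15Rik (0.964), Fgfrl1 (0.957) and Adamtsl2 (0.956), and for Ctnnb1 A_52_P472397 D10Bwg1070e (0.979) and Accs (0.965). These arrays share treatments and slides, so all genes that follow the treatments correlate.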

How the data were processed

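RNA of each monolayer was labeled in 1 color and hybridized to an Agilent whole mouse genome array of 60-base probes. The authors read the scans with Agilent Feature Extraction 9.5.3.1, and the deposited intensity values are its background-subtracted processed signals, not scaled between arrays. The authors' deposited ratio table, each spot relative to the 75th percentile of its array, was an alternative. The genome build of the probe positions is not given in the sources used here.

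The members and lists were chosen with earlier results of these data known. Of 520548 spot values, 1327 flagged as outliers were left out; spots of a probe were averaged. The deposited intensity of each probe was put on a log2 scale and each array's 75th percentile (774 to 1146) was subtracted. Probes well above background on all 3 arrays of a group were tested (22750, 55.3%) with limma 3.58.1 in R 4.3.3, a fit over all 12 arrays, in 7 comparisons, with Benjamini-Hochberg adjustment over all tested probes. All member probes were named. For each of them called against BSA, the 3 genes of highest correlation were named, and from the fixed lists each gene called against BSA or in the interaction, plus up to 4 of the brightest not called. A few genes that this rule names are not reported here. A listed gene was read by its brightest detected probe. A bound was the mean of the bright group over the dimmest level well above background on each dim array, or the probe's own if higher. An exact permutation test of 3 against 3 cannot go below p = 0.1. Depth on an array is signal over background, and 3 arrays a group limit the precision. The code was tested on simulated data with known changes.

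The labels' replicate numbers were checked as pairs. Deviations of same-numbered arrays correlated at -0.412 to 0.272 and those of different-numbered arrays at -0.399 to 0.425. No pairing was seen, but 3 arrays a group cannot exclude it. Alternatives covered background correction, scaling, filters, flags, the deposited table, the test, the threshold, slide and each array in turn. One was added after seeing the data: normexp with local backgrounds above 3 times an array's median set to that median, since 4 spots of BSA replicate 1 and 39 of Rspo2 replicate 2 had local backgrounds up to 8241 and 45100.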

Additional observations from a re-analysis of the deposited data

Results flagged for a closer look

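In all, 6 results stood out because the effect of Rspo2 differed with and without Wnt3a, by limma's test of the interaction (log2 scale, adjusted p under 0.05). They were Tcf7 at 1.38 and 1.19 for A_52_P244702 and A_52_P244711, Tcf7l2 at 0.78 and 0.73 for A_52_P316355 and A_52_P566741, and Bcl9 at 1.03 and 1.00 for A_52_P310002 and A_52_P89477. All 6 kept their sign once slide was a term, and 1 of them, Tcf7 A_52_P244702, was then called at 1.59.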

How the results depend on the processing

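Counts of called member probes for the combination against BSA were 5, and 3 under normexp background correction, with slide as a term and by the methods' t-test after Benjamini-Hochberg, 9 at 1.5-fold and 12 with no fold requirement. For the combination against Wnt3a, 3 became 0 under normexp and the t-test, 7 at 1.5-fold and 8 with no fold requirement. For the combination against Rspo2, 5 became 1 under normexp, 2 with high local backgrounds replaced, with slide and by the t-test, and 11 at 1.5-fold and with no fold requirement. The interaction count of 3 became 0 under normexp, 1 with backgrounds replaced, quantile normalization, median scaling, no filter and slide, and 6 at 1.5-fold and with no fold requirement. For Wnt3a against BSA, 1 became 0 under both normexp settings, 2 under quantile normalization, median scaling, no filter and the filter on positive and significant signal, 4 at 1.5-fold and 8 with no fold requirement. For Rspo2 against BSA, 0 became 1 under quantile normalization, median scaling and that filter, and 2 with no fold requirement. For Wnt3a against Rspo2, 0 became 1 under median scaling, slide, 1.5-fold and no fold requirement. Over the lists 11 became 2 with slide, 7 by the t-test and 27 with no fold requirement.

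Leaving out an array in turn gave 7 to 11 list genes, 5 to 5 member probes for the combination against BSA, 3 to 5 against Rspo2 (3 without combination replicate 1), 3 to 3 against Wnt3a, 0 to 1 for Rspo2 (1 without Rspo2 replicate 2), 1 to 3 for Wnt3a (3 without BSA replicate 3, 2 without Wnt3a replicate 2 or 3), 0 to 1 for Wnt3a against Rspo2 (1 without Wnt3a replicate 3) and 2 to 4 for the interaction (2 without Rspo2 replicate 2 or Wnt3a replicate 2). The replicate block left the counts at 0, 1, 5, 3, 5, 0 and 3 and the lists at 11. Against Rspo2, the combination turned to -0.0082 for Bcl9 A_52_P89477 and -0.46 for Tcf7l2 A_52_P494915 under normexp, where 2 arrays held spots of extreme local background. Of 1155 probes called for the combination against BSA, 292 were higher, and of 1028 under median scaling 531; for Wnt3a, 92 of 573 against 384 of 568. Of all 545 single-probe checks, 476 kept their sign and passed, or within a slide stayed close to the main value. Another 66 kept their sign but lost significance or fold, 1 moved in size and 2 reversed, those given above under normexp. With slide as a term 33 of the 48 member differences that passed the adjusted p no longer did, and 0 of them changed sign. Under normexp 40 of the 48 were lost and 3 changed sign, whereas with high local backgrounds replaced 2 were lost and 0 changed sign. Under median scaling 10 were lost and 1 changed sign. Within-slide values give no count and the t-test no interaction. Where no cause is given, the cause was not tested. Signal near background limits Lef1, Axin2 and Apc A_52_P633752.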
